A study of Mus musculus with 6 samples.

Results

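The large ribosomal subunit protein genes were followed in the ocular lenses of newborn mice. The set holds 45 protein-coding genes, Rpl3 to Rpl41 with the acidic stalk genes Rplp0, Rplp1 and Rplp2, picked by gene symbol from a table of 22298 entries. Of these 45 genes, 44 passed the filter on low values and were tested, and Rpl24 was not.

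Lenses came from Fyco1-/- mice, which lack the autophagy adaptor FYCO1 by their label, and from wild-type (WT) mice. Every mouse was of strain C57BL/6 by its label, was taken at postnatal day 0 and gave whole lenses, and the labels name no other allele or agent. Each genotype had 3 biological replicate libraries, named A, B and C, and each library was a pool of 10 lenses, so that p-values measure the spread between pools. Values are FPKM (fragments per kilobase of gene, scaled to the mapped reads of the library), and log2 fold changes are Fyco1-/- over WT on log2(FPKM + 0.5), so that they understate the ratio of low genes.

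Summed FPKM ran from 741913 to 760459 per library, and crystallins, the proteins that fill lens fibre cells, took 70.2% to 71.7% of it. Fyco1 itself had 4.61, 4.59 and 4.87 FPKM in Fyco1-/- libraries A, B and C, against 5.40, 5.21 and 5.11 FPKM in WT libraries A, B and C (log2 fold change -0.15, SE 0.08, adjusted p = 0.273 in limma). The groups do not overlap, but the labels do not say which part of the gene the allele alters, so this level does not check the genotype. Of 13 entries for 12 lens markers 12 were tested, with 1 higher in Fyco1-/- lenses and 4 lower, where 3.42% and 5.02% of all tested genes were called, and their part in the results below was not tested. The remaining entry is another for Lim2, a membrane protein of fibre cells. It was near 0 in every library (0 to 0.0794 FPKM in Fyco1-/- and 0 to 0.150 FPKM in WT). The tested Lim2 entry had 3.29, 3.17 and 3.48 FPKM in Fyco1-/- libraries, against 3.30, 2.67 and 2.87 FPKM in WT libraries, and was not called. Of the markers of other cells, 5 of 8 were tested for blood, 7 of 9 for vessels and mesenchyme, 1 of 10 for retina and pigment epithelium and 4 of 6 for macrophages. None of these markers gave a call in limma. Their summed levels were 102 to 241 FPKM in Fyco1-/- and 81.4 to 195 FPKM in WT for blood, 44.2 to 48.5 against 45.4 to 59.99 FPKM for vessels and mesenchyme, 1.499 to 1.84 against 1.26 to 1.94 FPKM for retina and pigment epithelium, and 2.82 to 3.66 against 2.64 to 28.98 FPKM for macrophages. The highest of these is WT B, where Lyz2 alone had 23.1 FPKM, and the other WT libraries reached at most 4.49 FPKM. Of the 7 tested vessel and mesenchyme markers 5 had negative and 2 had positive log2 fold changes, with a median of -0.22. Among them 2 had an unadjusted p under 0.05 in limma, and the authors' deposited table, from DESeq2, calls 1 lower. All 4 tested macrophage markers had negative log2 fold changes. The part of such cells in the results below was not tested.

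The large subunit is the part of the ribosome that joins amino acids into a chain, and its proteins are wrapped around a core of ribosomal RNA. The proteins brace the site where peptide bonds form, line the tunnel through which the new chain leaves, or build a flexible stalk that brings in the factors driving translation. Their mRNAs are among the most abundant in dividing cells, and many start with a run of pyrimidines through which nutrient signalling sets how well they are translated. In the lens, fibre cells make crystallins in bulk before they lose their nuclei and organelles.

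A small group of these genes was higher in Fyco1-/- lenses, 1 gene was far lower, and most differed little. By limma on all 12001 tested genes, with a Benjamini-Hochberg adjusted p under 0.05 taken as a call, 11 of the 44 genes rose and 2 fell in Fyco1-/- lenses. Of all tested genes 3.42% were called higher and 5.02% lower. The 11 rises were modest, with fold changes of 1.08 to 1.48, whereas Rpl29 was 5.49-fold lower. The log2 fold change was positive for 30 genes and negative for 14, with a median of 0.07 over the 44 genes and of -0.04 over all tested genes, and 24 genes lay within 0.1 of 0. In 21 genes every Fyco1-/- library was above every WT library and in 5 every one was below, where 11.1% and 18.6% of all tested genes were so. The authors' deposited table, from DESeq2, has 17 of the 44 genes higher and 1 lower at an adjusted p under 0.05, against 5.22% and 4.15% of the 13066 genes with an adjusted p in it. Scaling by the median of ratios changed the split of all calls, with 57.0% of them higher in place of 40.5%. Under it 9 of the genes were called higher and 1 lower, where 5.21% and 3.93% of all tested genes were. In whole lenses, fewer cells of a type and less RNA per cell cannot be told apart.

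**Figure D1:**
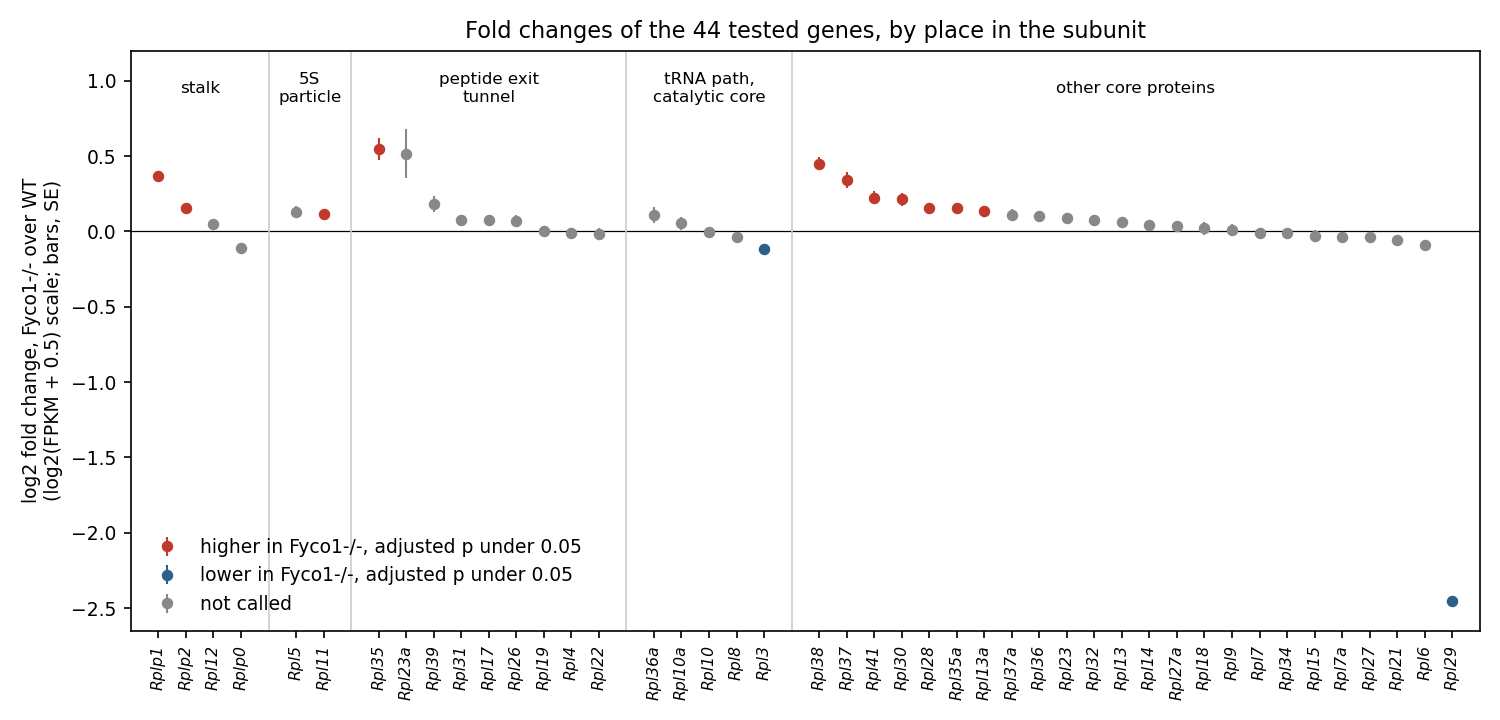
The plot of fold changes by place in the subunit gives the log2 fold change (Fyco1-/- over WT, on log2(FPKM + 0.5)) of the 44 tested genes with its SE, grouped by the part of the subunit each protein belongs to. Red points are the 11 genes called higher, blue points the 2 called lower and grey points the rest. Rpl29 lies alone at -2.45, and the other 43 genes lie between -0.12 and 0.55.

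Most of the genes were abundant. The median of their mean levels over the 6 libraries was 444 FPKM, and 42 of the 45 were above 50 FPKM. Rpl41, the shortest protein of the ribosome, came first at 1344 FPKM, followed by Rplp1 of the stalk at 1256, Rpl36 at 819, Rplp0 of the stalk at 806 and Rpl32 at 748 FPKM. At the low end stood Rpl18 at 115.0, Rpl22 at 90.9, Rpl35 at 23.1, Rpl23a at 12.9 and Rpl24 at 0.488 FPKM. Replicates were tight, with a median coefficient of variation of 2.15% in Fyco1-/- and 2.56% in WT. Summed over the 45 genes, the level was 20802, 20720 and 20659 FPKM in Fyco1-/- libraries A, B and C, against 19971, 19367 and 20256 FPKM in WT libraries A, B and C. The groups do not overlap, and the share of all FPKM outside the crystallins was 9.54%, 9.46% and 9.59% in Fyco1-/- libraries, against 9.04%, 8.90% and 9.35% in WT libraries.

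The lowest 3 genes share exons with other genes, which bears on what their counts can hold. In GENCODE release M21 (GRCm38), 71.5% of the exon bases of Rpl24 also belong to a gene on the same strand, Gm28037. For Rpl35, 68.3% of exon bases lie in exons of genes on the opposite strand, Wdr38 and Arpc5l, and for Rpl23a 55.4% lie in those of Tlcd1. Rpl13a had 59.3% of its exon bases shared with genes on the same strand, Gm45713 and Mir5121, and averaged 525 FPKM, and Rpl30 had 57.4% shared on the opposite strand and averaged 186 FPKM. How the authors' counting treated strand and shared exons is not given in the sources used here, and its part in these levels was not tested. Every one of the 45 genes also has at least 1 near-identical copy elsewhere in the annotation (at least 95% identity over at least 100 bases), with a median of 6 copies and up to 61 for Rpl21. Reads may therefore be split between a gene and its copies. Across the 45 genes the mean level and the number of copies had a Spearman rho of -0.36, a description over genes that share the same 6 libraries.

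**Figure D2:**
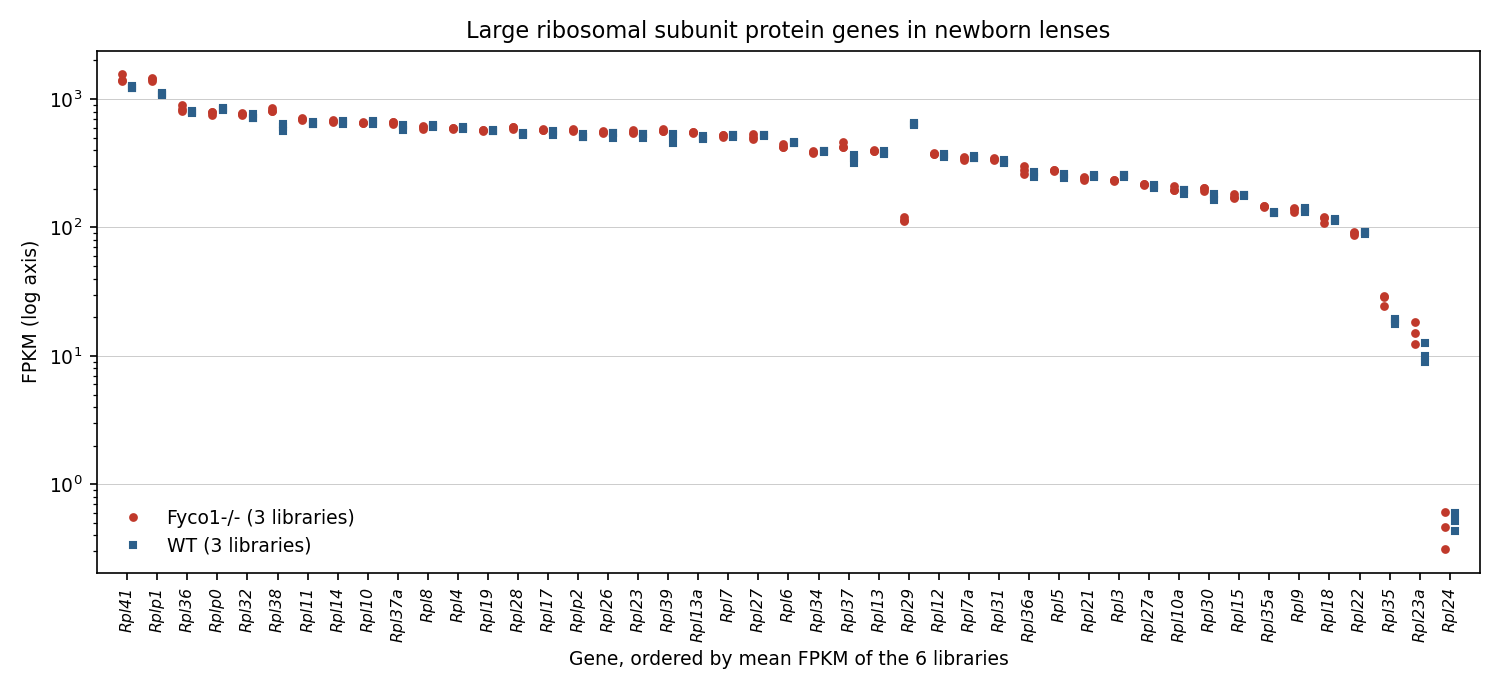
The plot of levels by gene shows the FPKM of each library on a log axis for the 45 genes, ordered by their mean over the 6 libraries, with Fyco1-/- libraries as red circles left of WT libraries as blue squares. Of the 45 genes, 42 lie above 50 FPKM, Rpl35, Rpl23a and Rpl24 lie below it, and Rpl29 is the gene whose groups stand far apart.

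In the stalk, the mRNAs of the acidic proteins rose and the mRNA of their anchor did not. Rplp1 and Rplp2 encode the small acidic proteins that pair up and bind translation factors. Rplp1 had 1453, 1425 and 1373 FPKM in Fyco1-/- libraries A, B and C, against 1076, 1089 and 1121 FPKM in WT libraries A, B and C. All 3 Fyco1-/- values were above all WT values, a 1.29-fold rise (log2 fold change 0.37, SE 0.03, adjusted p = 9.4e-05 in limma) that stayed a call under each of the 18 alternative settings. Rplp2 had 572, 569 and 586 FPKM in Fyco1-/- lenses, against 504, 508 and 537 FPKM in WT lenses. The groups were apart again, though the rise was smaller (log2 fold change 0.16, SE 0.03, adjusted p = 0.0180), and the call was lost without Fyco1-/- C, WT A or WT B (adjusted p = 0.0687, 0.0805 and 0.0614) and with median-of-ratios scaling (0.0567). Rplp0, the protein that holds the acidic pairs to the ribosome, had 752, 787 and 790.2 FPKM in Fyco1-/- lenses, against 853, 825 and 832 FPKM in WT lenses. Here the Fyco1-/- libraries were the lower ones, and the difference did not pass the test (log2 fold change -0.11, SE 0.03, adjusted p = 0.0613). It became a call after rescaling to TPM (adjusted p = 0.0439) and after trends on exon length and GC content were removed (0.0185). Under the other 16 of the 18 settings Rplp0 was not called, and median-of-ratios scaling gave a log2 fold change of -0.06 (adjusted p = 0.523). The authors' deposited table does not call it either (log2 fold change -0.06, adjusted p = 0.530 from DESeq2). Rpl12, at the base of the stalk, averaged 375 ± 1.83 FPKM in Fyco1-/- lenses and 363 ± 10.4 FPKM in WT lenses (SD, n = 3 each), with a log2 fold change of 0.05 (adjusted p = 0.385 in limma).

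The genes of the 5S particle differed in the same direction. Only Rpl11 passed the test in limma. The authors' deposited table calls both higher (adjusted p = 0.00473 for Rpl11 and 0.0053 for Rpl5 from DESeq2). RPL5 and RPL11 bind the small 5S ribosomal RNA before it joins the subunit, and when set free they can bind MDM2, the protein that keeps p53 low. Rpl11 had 711, 701 and 688 FPKM in Fyco1-/- libraries A, B and C, against 636, 640.3 and 661 FPKM in WT libraries A, B and C. The groups do not overlap, at 1.08-fold, the smallest of the rises called (log2 fold change 0.12, SE 0.03, adjusted p = 0.0400 in limma). That call did not hold under 11 of the 18 other settings, among them leaving out any of Fyco1-/- A, B or C (adjusted p = 0.0840, 0.118 and 0.0703) or WT A or B (0.143 and 0.108). Rpl5 had 278, 279 and 278 FPKM in Fyco1-/- lenses, against 258, 241 and 262 FPKM in WT lenses. It too was higher in every Fyco1-/- library and missed the threshold (log2 fold change 0.13, SE 0.04, adjusted p = 0.0574), and it was called with quantile normalization (adjusted p = 0.0109). Fam69a, whose exons overlap those of Rpl5 on the opposite strand, had 3.16, 3.11 and 3.15 FPKM in Fyco1-/- lenses and 2.21, 1.96 and 2.19 FPKM in WT lenses, and the part of shared reads was not tested.

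Around the tunnel by which the new chain leaves, 1 of 9 genes was called by limma. It was higher, where 3.42% of all tested genes were. The authors' deposited table calls 3 of the 9 higher, against 5.22% of its genes with an adjusted p. These are Rpl35, Rpl39 (adjusted p = 0.00369 from DESeq2) and Rpl23a (0.0367). Rpl35, which sits at the tunnel's exit where targeting factors dock, had 29.4, 28.5 and 24.6 FPKM in Fyco1-/- libraries A, B and C, against 19.4, 17.7 and 18.7 FPKM in WT libraries A, B and C. The lowest Fyco1-/- library was above the highest WT library, and the 1.48-fold rise was the largest of the 11 (log2 fold change 0.55, SE 0.07, adjusted p = 0.00131 in limma). It stayed a call under every alternative, with adjusted p values of up to 0.00947. Wdr38, which overlaps it on the opposite strand, had at most 0.0759 FPKM in a Fyco1-/- library and 0.130 FPKM in a WT library. Arpc5l, the other gene overlapping it there, had 7.54, 7.61 and 6.88 FPKM in Fyco1-/- lenses and 7.62, 6.47 and 6.77 FPKM in WT lenses, with overlapping groups, and the part of shared reads was not tested. Rpl23a, its neighbour at the exit, had 18.4, 12.4 and 15.2 FPKM in Fyco1-/- lenses, against 12.6, 9.99 and 8.98 FPKM in WT lenses. These groups overlap, and a log2 fold change of 0.52 did not pass the test (SE 0.16, adjusted p = 0.0997). It was called without Fyco1-/- B (adjusted p = 0.0429) and with the libraries blocked by letter (0.0173). Rpl39, a small protein in the tunnel wall, averaged 572 ± 12.3 FPKM in Fyco1-/- lenses and 505 ± 40.8 FPKM in WT lenses (SD, n = 3 each), with a log2 fold change of 0.18 (adjusted p = 0.0681). The other 6 tunnel genes, Rpl4, Rpl17, Rpl19, Rpl22, Rpl26 and Rpl31, had log2 fold changes between -0.02 and 0.08, and none was called. Rpl22 had 92.6, 88.0 and 90.3 FPKM in Fyco1-/- lenses and 92.9, 89.1 and 92.5 FPKM in WT lenses, with overlapping groups (log2 fold change -0.02, adjusted p = 0.823).

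Near the catalytic core and along the path of the tRNAs, 1 of 5 genes was called by limma, and it fell. Of all tested genes 5.02% were called lower, and the authors' deposited table calls 0 of these 5 genes in either direction. RPL3 reaches toward the site where peptide bonds form. Rpl3 had 233, 236 and 232 FPKM in Fyco1-/- libraries A, B and C, against 255, 249 and 256 FPKM in WT libraries A, B and C. Every Fyco1-/- library was below every WT library, by a small step that only just passed (log2 fold change -0.12, SE 0.03, adjusted p = 0.0498 in limma). The call was lost under 15 of the 18 other settings, among them leaving out any library (adjusted p = 0.0776 to 0.150), and the authors' deposited table gives an adjusted p of 0.452. Rpl10, which helps place the tRNA, had a log2 fold change of -0.00, Rpl8 of -0.04, Rpl10a, in the mobile stalk where the spent tRNA leaves, of 0.06, and Rpl36a of 0.11, and none passed the test.

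Among the 24 tested genes of the other core proteins 7 rose and 1 fell by limma, where 3.42% and 5.02% of all tested genes did. The authors' deposited table calls 10 of the 24 higher and 1 lower, against 5.22% and 4.15% of its genes with an adjusted p. Rpl38, a small protein whose mutation in mice disturbs the patterning of the skeleton, had 852, 801 and 813 FPKM in Fyco1-/- libraries A, B and C, against 605, 566 and 634 FPKM in WT libraries A, B and C. The groups do not overlap, and the rise was 1.37-fold (log2 fold change 0.45, SE 0.04, adjusted p = 2.2e-04 in limma). Rpl37, a zinc-binding protein, had 461, 424 and 420.0 FPKM in Fyco1-/- lenses, against 345, 318 and 367 FPKM in WT lenses, again with no overlap (log2 fold change 0.34, SE 0.06, adjusted p = 0.00503). Rpl41, which reaches across to the small subunit, had 1554, 1383 and 1408 FPKM in Fyco1-/- lenses, against 1229.95, 1218 and 1270.4 FPKM in WT lenses. Fyco1-/- A was the highest of the 6, and the difference (log2 fold change 0.22, SE 0.04, adjusted p = 0.0118) was not called after quantile normalization (adjusted p = 0.385). Rpl38, Rpl37 and Rpl28 kept their calls under all 18 other settings.

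The remaining 4 rises of this group were small. Rpl30 had 202, 203 and 194 FPKM in Fyco1-/- libraries A, B and C, against 171, 164 and 181 FPKM in WT libraries A, B and C (log2 fold change 0.21, adjusted p = 0.0130 in limma). Rpl28 had 602, 585 and 603 FPKM in Fyco1-/- lenses, against 536, 523 and 544 FPKM in WT lenses (log2 fold change 0.16, adjusted p = 0.0102). Neither gene had overlapping groups, and Ube2s, which shares 16.5% of the exon bases of Rpl28 on the opposite strand, was also higher, at 79.0, 83.4 and 79.2 FPKM in Fyco1-/- lenses against 60.7, 59.3 and 52.0 FPKM in WT lenses. Rpl35a, mutated in some human families with Diamond-Blackfan anaemia, had 145.9, 145.5 and 146.0 FPKM in Fyco1-/- lenses, against 129.7, 129.7 and 132.6 FPKM in WT lenses (log2 fold change 0.16, adjusted p = 0.0172). Rpl13a had 552, 552 and 547 FPKM in Fyco1-/- lenses, against 490.3, 498 and 512 FPKM in WT lenses (log2 fold change 0.14, adjusted p = 0.0185). In these 2 genes as well the lowest Fyco1-/- library was above the highest WT library. Calls were lost without Fyco1-/- B or WT A for Rpl30 (adjusted p = 0.0505 and 0.0504), and without Fyco1-/- B or C or WT A or B for Rpl35a (0.0566 to 0.0687) and Rpl13a (0.0541 to 0.0843). Rpl13a was also not called with the libraries blocked by letter (0.0591).

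**Figure D3:**
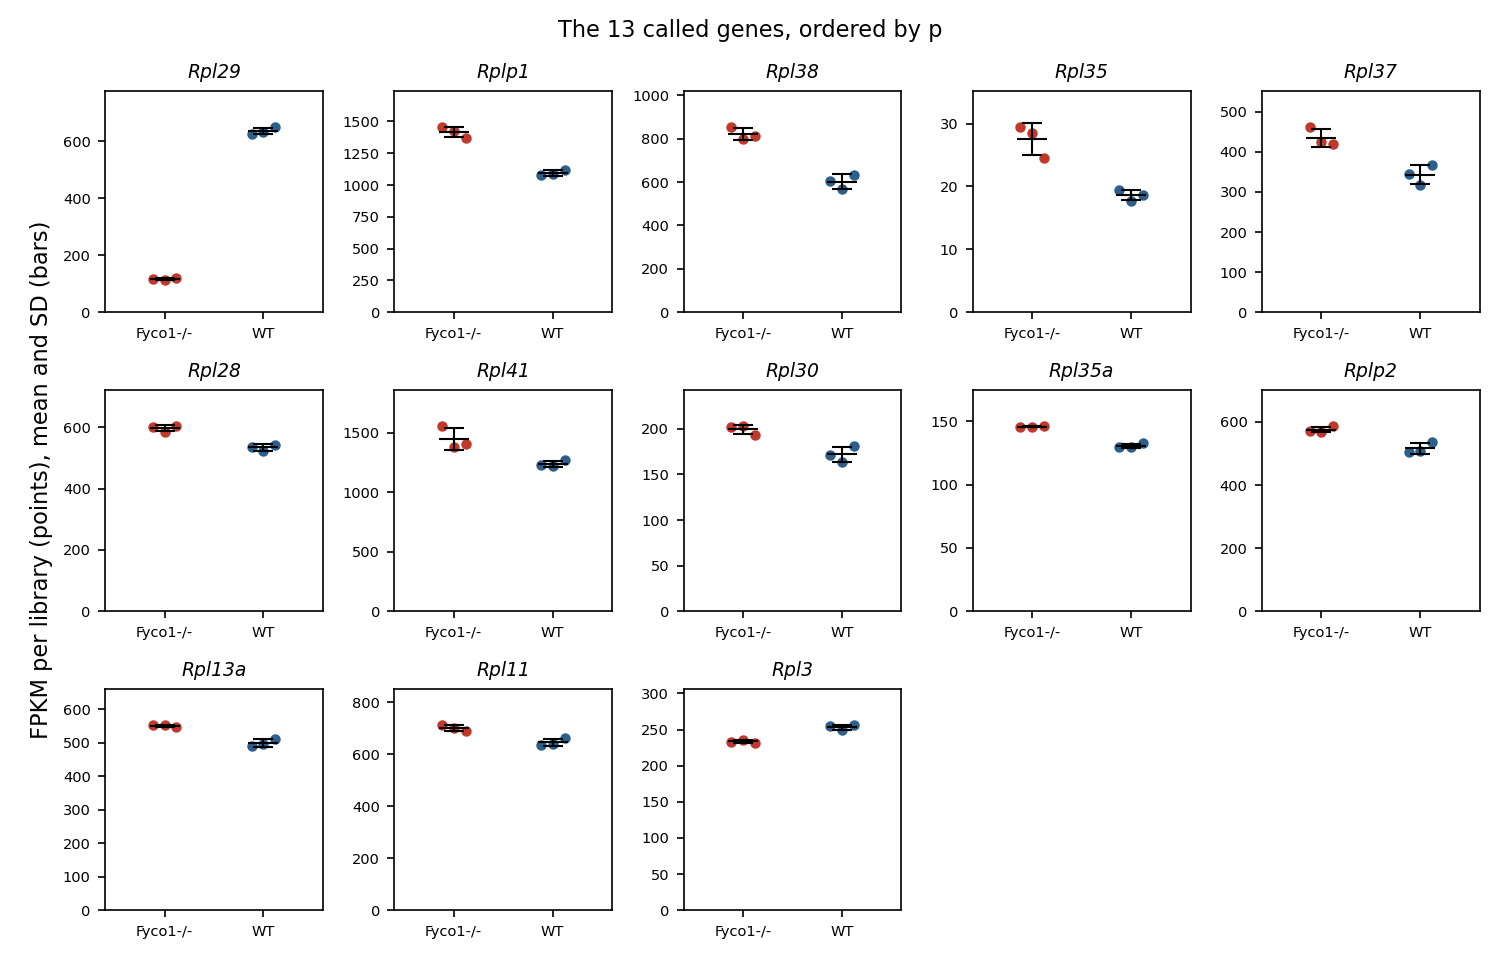
The plot of the 13 called genes shows FPKM per library on axes that start at 0, with Fyco1-/- libraries (red) left of WT libraries (blue), ordered by p, with the mean and SD as bars. In each panel the 3 values of 1 genotype lie on the same side of the 3 values of the other. The gap is large beside the level for Rpl29 and small for Rpl11 and Rpl3.

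The 16 genes of this group without a call in limma include Rpl36, Rpl32 and Rpl14 of the upper part of the range. Among these 16 genes the authors' deposited table calls Rpl36, Rpl37a and Rpl23 higher (adjusted p = 0.0497, 0.04775 and 0.0367 from DESeq2). Rpl36 had 814, 839 and 892 FPKM in Fyco1-/- libraries A, B and C, against 807, 775 and 789 FPKM in WT libraries A, B and C. Its groups were apart by little (log2 fold change 0.10, SE 0.04, adjusted p = 0.126 in limma), and it was called only with quantile normalization among the settings tried (0.0398). Rpl32 had 763, 779 and 758 FPKM in Fyco1-/- lenses, against 709.7, 717 and 759 FPKM in WT lenses, with overlap (log2 fold change 0.07, adjusted p = 0.199). For both genes the sign was negative once trends on exon length and GC content were removed (log2 fold changes of -0.03 and -0.01). Rpl18 had 119.8, 118 and 109 FPKM in Fyco1-/- lenses, against 112, 115.0 and 115 FPKM in WT lenses, with overlap (log2 fold change 0.02, adjusted p = 0.829). Rpl6 had the most negative value of this group short of the threshold (log2 fold change -0.09, adjusted p = 0.123). Rpl24, which was not tested, had 0.313, 0.605 and 0.466 FPKM in Fyco1-/- lenses and 0.432, 0.515 and 0.594 FPKM in WT lenses.

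Rpl29 stood apart from all the others. It encodes a small basic protein on the outer face of the subunit, known also as a heparin-binding protein, and mice without it are small. Rpl29 (ENSMUSG00000048758, chr9:106429454-106431568, plus strand, GRCm38) had 114.9, 113 and 119.7 FPKM in Fyco1-/- libraries A, B and C, against 627, 634 and 649 FPKM in WT libraries A, B and C. The means were 116 ± 3.401 FPKM in Fyco1-/- lenses and 637 ± 11.4 FPKM in WT lenses (SD, n = 3 each), and no Fyco1-/- library came near a WT library. The log2 fold change was -2.45 (SE 0.03, adjusted p = 8.7e-11 in limma), between -2.48 and -2.16 over the 18 other settings. Among all 12001 tested genes 5 were called with a log2 fold change of -2 or less (0.0417%), and Rpl29 had the 4th lowest value of all tested genes. Without Rpl29 the summed share of the other members outside the crystallins was 9.49%, 9.41% and 9.53% in Fyco1-/- libraries, against 8.76%, 8.60% and 9.05% in WT libraries.

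As Rpl29 fell, 2 of its processed pseudogenes rose. These are copies of its mRNA that were written back into the genome elsewhere. Gm8210 (chr1:43189156-43189638) had 34.2, 34.5 and 32.5 FPKM in Fyco1-/- libraries A, B and C, against 0.121, 0 and 0.238 FPKM in WT libraries A, B and C (log2 fold change 5.80, SE 0.13, adjusted p = 4.9e-09 in limma). Gm13841 (chr5:115801677-115802159) had 23.5, 24.3 and 30.5 FPKM in Fyco1-/- lenses, against 1.57, 0.825 and 1.55 FPKM in WT lenses (log2 fold change 3.89, SE 0.18, adjusted p = 1.1e-05). Both were near 0 in every WT library and far above it in every Fyco1-/- library. Rpl29 has 29 near-identical copies in the annotation, 14 of them in the table. A further 11 of these copies, all but Gm3550 annotated as pseudogenes, together had 3.34, 1.77 and 1.45 FPKM in Fyco1-/- lenses and 2.93, 3.25 and 1.39 FPKM in WT lenses, with overlapping groups. The remaining match, in the protein-coding gene Uimc1, had 2.35, 2.53 and 2.10 FPKM in Fyco1-/- lenses and 2.23, 1.80 and 2.19 FPKM in WT lenses and was not called. The copies named were chosen after their values were seen.

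Gm8210 and Gm13841 differ from the 483-base coding sequence of Rpl29 by the same 3 substitutions, C72A, C300T and T423C, counted from 1 at the first base of the start codon, with the base of Rpl29 first. None of them changes the encoded amino acid. Of the 23 copies that cover all 3 positions, 20 have C300T and 23 have T423C. C72A is found in Gm8210 and Gm13841 and in no other copy whose match covers position 72. The match of Gm13740 starts at position 162, so that copy was not compared there. The stretch around position 72 is shown from the GENCODE M21 transcripts because it is where Gm8210 and Gm13841 part from both Rpl29 and the other copies that cover it. Gm15454, a copy on chromosome 1 with 0.108 FPKM in Fyco1-/- and 0.115 FPKM in WT lenses, is given for comparison, and the capital is position 72. The stretch of Rpl29 is chr9:106430322-106430362 on the plus strand of GRCm38.
Rpl29: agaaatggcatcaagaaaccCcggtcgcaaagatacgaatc
Gm8210: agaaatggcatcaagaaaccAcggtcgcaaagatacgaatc
Gm13841: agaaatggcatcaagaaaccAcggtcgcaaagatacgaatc
Gm15454: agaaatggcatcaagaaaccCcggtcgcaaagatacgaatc
Outside the capital the 4 stretches are the same. In this stretch Rpl29 cannot be told from Gm15454, nor Gm8210 from Gm13841, and only the capital sets these pairs apart. Gm8210 and Gm13841 are alike over all 483 bases, so reads within them cannot be assigned to 1 of the 2. Their 2 levels and their sum may therefore rest on shared reads. Which locus the reads of Gm8210 and Gm13841 came from was not tested, since the table holds no reads. On a scale of FPKM times exon length in kilobases, which sets genes of unequal length side by side, Rpl29 had 131 in Fyco1-/- and 717 in WT lenses, and the 2 copies together had 28.9 in Fyco1-/- and 0.693 in WT lenses. The gain of the copies was 4.81% of the loss of Rpl29, taking the exon length of the annotation for the length the authors used. Adding copies to their parent gene left Rpl29 called.

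**Figure D4:**
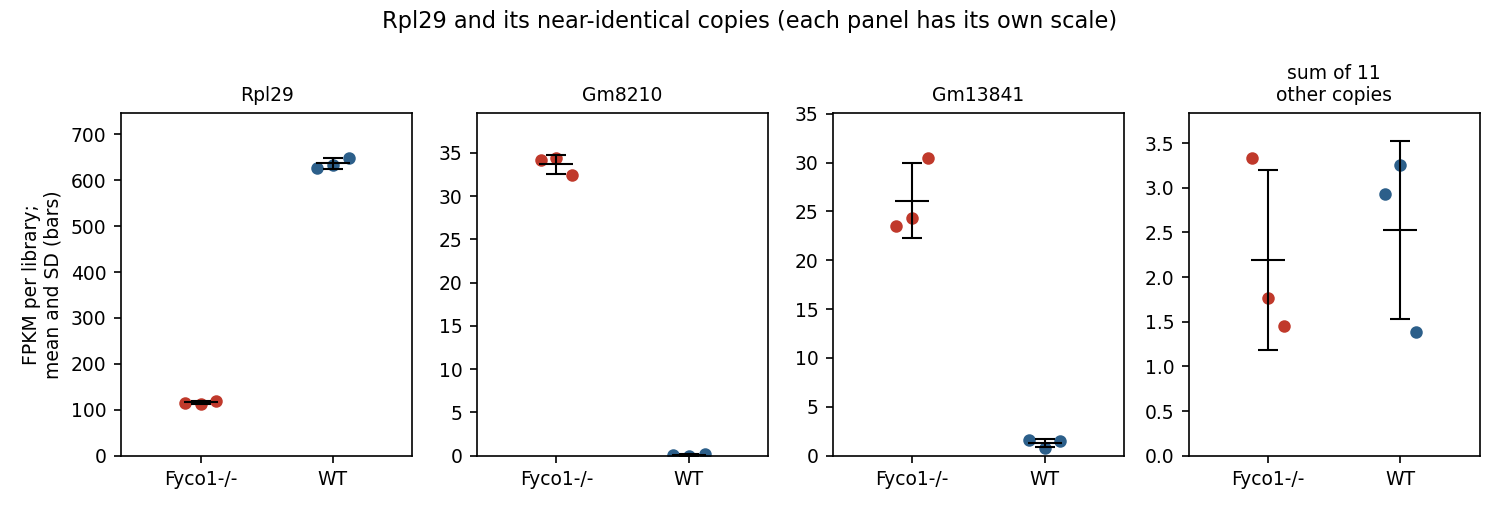
The plot of Rpl29 and its copies shows FPKM per library for Rpl29, Gm8210, Gm13841 and the sum of 11 other copies, with Fyco1-/- (red) left of WT (blue), mean and SD as bars, and a scale of its own in each panel. Rpl29 is at 113 to 119.7 FPKM in Fyco1-/- libraries against 627 to 649 FPKM in WT libraries, the 2 copies are high in Fyco1-/- libraries, and the summed other copies overlap.

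Rpl29 lies on chromosome 9, as Fyco1 does, at a distance of 17.4 Mb. The other members there were Rplp1, called higher, and Rpl14 and Rpl4, not called. Rpl14, 3.21 Mb from Fyco1, had 660.1, 688 and 679 FPKM in Fyco1-/- libraries A, B and C, against 674, 638 and 658 FPKM in WT libraries A, B and C (log2 fold change 0.04, SE 0.03, adjusted p = 0.479 in limma). Rpl4, 59.6 Mb from Fyco1, had 588, 597 and 590.0 FPKM in Fyco1-/- lenses, against 609, 585 and 596 FPKM in WT lenses (log2 fold change -0.01, SE 0.03, adjusted p = 0.841). In both genes the groups overlap, and of the members Rpl14 lies nearest to Fyco1. On chromosome 9 as a whole 83 of 634 tested genes were called (13.1%), against 8.43% of all tested genes. Within 1 Mb of Rpl29 20 genes were tested, of which 4 were higher (Pcbp4, Tex264, Hemk1 and Acy1) and 1 was lower (Ppm1m), and their median log2 fold change was -0.10. Acy1, the nearest of these 5 downstream, had 5.71, 5.57 and 5.14 FPKM in Fyco1-/- lenses, against 4.06, 3.91 and 4.08 FPKM in WT lenses. Bfsp2, which encodes a filament protein of lens fibre cells and lies 2.95 Mb from Rpl29, had the lowest log2 fold change of all tested genes, and it was chosen here after its values were seen. It had 78.3, 81.2 and 116 FPKM in Fyco1-/- lenses, against 1688, 1757 and 1764 FPKM in WT lenses (log2 fold change -4.26, SE 0.16, adjusted p = 1.4e-04). Whether the DNA around Fyco1, Rpl29 or Bfsp2 differs between the genotypes was not tested.

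Copies of other members were compared as well. Of 400 near-identical copies of the 45 genes, 207 are in the table and 71 were tested. By limma 5 of the 71 were called higher and 0 lower, where 3.42% and 5.02% of all tested genes were. Besides Gm8210 and Gm13841, whose 2 calls may rest on the same reads, the copies called were Rpl38-ps2, Rpl3-ps1 and Gm11942. Rpl38-ps2, identical to the coding sequence of Rpl38 over its length, had 138.7, 132 and 146 FPKM in Fyco1-/- libraries A, B and C, against 101.6, 99.1 and 103 FPKM in WT libraries A, B and C. Its log2 fold change of 0.45 (SE 0.04, adjusted p = 2.2e-04) equals that of Rpl38 to 2 decimals, and reads of these 2 cannot be told apart in the table. Rpl3-ps1 was at 4.52, 6.77 and 5.83 FPKM in Fyco1-/- lenses and 3.58, 2.51 and 2.37 FPKM in WT lenses, opposite in direction to Rpl3. Gm10076, a copy of Rpl41, had 597, 575 and 614 FPKM in Fyco1-/- lenses and 646, 614 and 660.3 FPKM in WT lenses, also opposite to its parent, and was not called (log2 fold change -0.10, adjusted p = 0.118). With copies added to their parent genes, a setting chosen after seeing the data, 11 genes were called higher and 1 lower.

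The genes that rose encode mostly short proteins. Over 43 tested genes without Rpl29, protein length and log2 fold change had a Spearman rho of -0.67, a description across genes that share the same 6 libraries. Of the 15 genes for proteins under 130 amino acids 8 were called higher and 0 lower, with a median log2 fold change of 0.16. Of the 28 for longer proteins 3 were called higher and 1 lower, with a median of 0.03, and the bound of 130 was chosen after the values were seen. Over all tested genes 3.42% were called higher and 5.02% lower. Rpl41 at 25 amino acids, Rpl38 at 70, Rpl37 at 97 and Rplp1 at 114 amino acids are among the short ones that rose, whereas Rpl34, at 117, had a log2 fold change of -0.01. At the long end Rpl3 has 403 and Rpl4 419 amino acids. The fold change had a rho of 0.08 with the mean level and of -0.09 with the number of copies over the same 43 genes. After trends on exon length and GC content over all genes were removed, 11 members were still called higher, and the median log2 fold change was 0.04 in place of 0.07. That exon length joins all annotated exons of a gene and need not follow protein length. Rpl35a, at 110 amino acids, has 3526 exon bases, and Rpl4, at 419, has 2007. This setting therefore does not test the link to protein length.

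**Figure D5:**
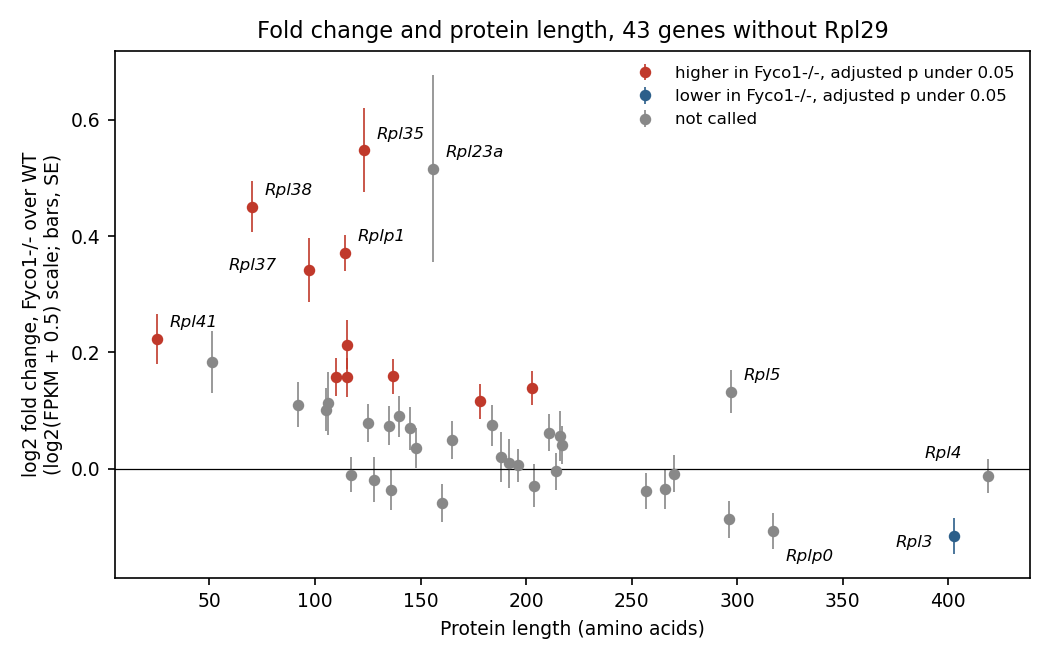
The plot of fold change against protein length shows the log2 fold change (Fyco1-/- over WT, with SE) of 43 genes over the length of the protein in amino acids, without Rpl29. Called genes are red (higher) or blue (lower). Genes under 130 amino acids reach 0.55, and the gene called lower, Rpl3, is at the long end.

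The start sites of the genes that rose were compared because ribosomal protein mRNAs are known for a pyrimidine run at their first base. RefSeq windows of 250 bases before to 50 bases after each start (GRCm38.p6) matched 34 of the 45 genes. A run of at least 8 C or T on the sense strand within 20 bases of the start was found in 18 of these 34 genes (52.9%) and in 18.4% of all 27025 genes with a window. Among members with a window, 6 of the 9 called higher have such a run, and 12 of the 24 tested but not called. The 6 are shown from 25 bases before to 25 bases after the annotated start, with the run in capitals.
Rpl38: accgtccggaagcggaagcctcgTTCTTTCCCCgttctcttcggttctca
Rpl35: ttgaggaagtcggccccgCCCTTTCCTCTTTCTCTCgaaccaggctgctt
Rpl35a: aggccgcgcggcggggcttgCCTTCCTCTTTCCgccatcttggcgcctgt
Rpl28: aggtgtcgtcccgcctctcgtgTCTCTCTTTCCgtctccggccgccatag
Rplp2: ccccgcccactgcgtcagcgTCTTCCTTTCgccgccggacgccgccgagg
Rpl13a: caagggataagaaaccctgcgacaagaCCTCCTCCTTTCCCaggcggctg
They lie at chr11:114668555-114668604 (plus strand) for Rpl38, chr2:39005107-39005156 (minus) for Rpl35, chr16:33056457-33056506 (plus) for Rpl35a, chr7:4792940-4792989 (plus) for Rpl28, chr7:141447626-141447675 (plus) for Rplp2 and chr7:45128721-45128770 (minus) for Rpl13a. The runs are 10 to 18 bases long, and they cross the start or lie just beside it. Searched on both strands of the whole windows, CTTTCC was in 61.8% of the members with a window and 29.3% of all genes, CCGGAAG in 41.2% and 9.93%, AANATGGC in 20.6% and 6.96%, GGGCGG in 67.6% and 38.2%, and TATAAA in 11.8% and 15.7%. CTTTCC can lie within a pyrimidine run. These are matches of letters and say nothing of which factors were bound.

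Rises also outnumbered falls among the calls of the small subunit. Of the 32 small subunit genes 6 were called higher and 1 lower, with a median log2 fold change of 0.05, where 3.42% and 5.02% of all tested genes were called. Rps29, a short zinc-binding protein, had 766, 771 and 774 FPKM in Fyco1-/- libraries A, B and C, against 520.3, 496 and 564 FPKM in WT libraries A, B and C (log2 fold change 0.55, SE 0.04, adjusted p = 5.8e-05 in limma). Rps28 averaged 446 ± 10.8 FPKM in Fyco1-/- lenses and 308 ± 29.2 FPKM in WT lenses (SD, n = 3 each; log2 fold change 0.54, adjusted p = 8.7e-04). Rps7 averaged 447 ± 7.17 FPKM in Fyco1-/- lenses and 528 ± 22.7 FPKM in WT lenses, the only fall (log2 fold change -0.24, adjusted p = 0.00330). Rps29 and Rps28 were higher in every Fyco1-/- library and Rps7 lower in every one, and whether the subunits differ from each other was not tested. Of 5 tested paralogues of large subunit genes, Rpl36al, the retroposed paralogue of Rpl36a, was higher, at 109, 101 and 102 FPKM in Fyco1-/- lenses against 91.1, 90.8 and 93.8 FPKM in WT lenses (log2 fold change 0.17, adjusted p = 0.0326).

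The factors that build the large subunit gave no call in the same test. Of all tested genes it called 3.42% higher and 5.02% lower. Of 42 tested assembly factors 0 were called by limma in either direction, with a median log2 fold change of 0.01, with 3 of them at an unadjusted p under 0.05 and 1 called higher in the authors' deposited table. Of 8 chaperones and partners of the 5S particle 0 were called by limma, with 1 at an unadjusted p under 0.05 and 1 called higher in the authors' deposited table. Among 23 subunits of RNA polymerases I and III, which make ribosomal RNA, 1 was lower, Polr1d, shared by both enzymes, at 19.7, 18.0 and 15.3 FPKM in Fyco1-/- lenses against 26.5, 22.2 and 21.8 FPKM in WT lenses (log2 fold change -0.40, SE 0.10, adjusted p = 0.0400 in limma). Of these 23 genes 6 had an unadjusted p under 0.05, and the authors' deposited table calls 2 higher and 1 lower.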

How the data were processed

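RNA from pooled whole lenses of 3 Fyco1-/- and 3 WT replicates was sequenced as paired reads. Per the submitters' processing notes, reads were aligned to GRCm38/mm10 with STAR 2.5 and counted per gene with HTSeq 0.6.1. The authors deposited FPKM per gene and library, per the file headers. The authors also deposited log2 fold changes and p-values with adjusted p-values from DESeq2, per the series' design text. Annotation, strand setting and treatment of multi-mapped reads are not given in the sources used here. The depth of each library is unknown because no counts were used, so no interval based on counts is given.

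From these values, log2(FPKM + 0.5) was fitted against genotype alone with limma 3.58.1 (R 4.3.3, trended and robust eBayes, two-sided). The 12001 genes that averaged 0.5 FPKM or more entered, and p-values were adjusted over all of them by the Benjamini-Hochberg method. The steps were tested on simulated data. With 3 libraries a side, the smallest p of an exact permutation test would be 0.1. The letters do not pair the libraries by a check of their deviations. Positions, lengths and copies came from GENCODE M21 by symbol and blastn 2.17.0, promoter windows from RefSeq, GRCm38.p6.

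Alternatives were pseudocounts of 0.1 and 1, no filter, at least 1 FPKM in 3 libraries, median-of-ratios scaling, quantile normalization, crystallins left out, TPM, no robust moderation, removal of trends on exon length and GC content, the letters as a block, each library left out, and copies added to their parent genes. Full values are given for every called member, the 5 highest and 5 lowest members, members on chromosome 9, and the stalk and 5S genes. Of other genes, Fyco1 and up to 4 called genes of each list by p may be named. Members and lists were chosen with earlier results of these data known.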

Additional observations from a re-analysis of the deposited data

How the results depend on the processing

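The count of all genes called was 1012. It was 568 with no filter on low values and 611 to 870 with a library left out (670 without Fyco1-/- B, 641 without Fyco1-/- C, 614 without WT A and 611 without WT B). The 11 large subunit genes called higher became 9 to 13 under the settings that keep all libraries, and 6 to 11 with a library left out (7 without Fyco1-/- C, 6 without WT A and 7 without WT B). The 2 called lower became 1, by the loss of Rpl3, with a pseudocount of 1, no filter on low values, median-of-ratios scaling, quantile normalization, crystallins left out, no robust moderation, copies added to their parent genes and each library left out (1 to 1), and 3 with TPM. The cause of these changes was not tested. The median log2 fold change of the genes was 0.0658, and it was 0.115 with median-of-ratios scaling, 0.0366 with trends on exon length and GC content removed and 0.0354 to 0.0883 with a library left out (0.0354 without WT B). Rpl29, Rplp1, Rpl38, Rpl35, Rpl37 and Rpl28 kept their calls under all 18 alternatives, and no named gene with a call changed direction under any. Same-lettered libraries had correlations of deviations of -0.030, 0.028 and 0.027 for A, B and C, so the letters share only a name. With the letters as a replicate block 929 genes were called, of which 10 large subunit genes were higher and 1 lower, with a median of 0.0658. Depth is unknown, which limits the genes of low FPKM most, such as Rpl24.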

Other observations

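Other mRNAs known for a pyrimidine run at their start included calls in both directions by limma, but not in the authors' deposited table. Of 20 tested outside the ribosome 2 were higher and 3 lower in Fyco1-/- lenses by limma, with a median log2 fold change of -0.01, where 3.42% and 5.02% of all tested genes were called. The authors' deposited table calls 3 of the 20 higher and 0 lower. Pabpc1, which binds poly(A) tails, averaged 391 ± 9.80 FPKM in Fyco1-/- lenses and 295 ± 10.6 FPKM in WT lenses (SD, n = 3 each; log2 fold change 0.41, adjusted p = 1.5e-04 in limma). Eef1a1, the elongation factor that delivers tRNAs, averaged 2191 ± 36.2 FPKM in Fyco1-/- lenses and 2379 ± 84.1 FPKM in WT lenses (log2 fold change -0.12, adjusted p = 0.0441). The others called were Cox7c, higher, and Vim and Eif4b, lower.

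Of 21 genes of mTORC1 signalling and the control of ribosomal protein mRNAs, Tsc2, an inhibitor of mTORC1, averaged 78.6 ± 2.09 FPKM in Fyco1-/- lenses and 65.8 ± 2.26 FPKM in WT lenses (log2 fold change 0.25, adjusted p = 0.00550 in limma). Mycn, a transcription factor known to drive ribosomal genes, averaged 31.3 ± 2.45 FPKM in Fyco1-/- lenses and 36.6 ± 1.02 FPKM in WT lenses (log2 fold change -0.23, adjusted p = 0.0481). The other 19 were not called, and the authors' deposited table calls 1 of the 21 higher and 0 lower, so that the fall of Mycn is no call there. The mitochondrial ribosome was tested by 47 genes of its own large subunit, with a median log2 fold change of 0.04. Of these Mrpl14 was higher (10.5 FPKM in Fyco1-/- lenses and 7.77 FPKM in WT lenses, log2 fold change 0.41, adjusted p = 0.0286) and Mrpl3 lower (8.64 FPKM in Fyco1-/- lenses and 12.996 FPKM in WT lenses, log2 fold change -0.57, adjusted p = 0.00136). The authors' deposited table calls 0 of the 47 higher and 1 lower, so that the rise of Mrpl14 is no call there. Over all tested genes limma called 3.42% higher and 5.02% lower.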
